A study of Mus musculus with 32 samples.

Results

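The 10 genes described here, Ltf, Camp, Ngp, Lcn2, S100a8, S100a9, Mmp8, Mmp9, Retnlg and Cxcr2, encode granule proteins and maturity markers of late neutrophils. They were chosen by name, and all 10 were found in both RNA-seq tables, among 23620 genes that the tables share. Their IGF2BP3 eCLIP peaks were those that carry the gene's Ensembl ID.

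The data came from mouse cells that express the leukemia fusion MLL-Af4. Lin- cells were lineage-depleted bone marrow cells, infected with a retrovirus that carries MLL-Af4, selected with G418 and kept in culture. CD11b+ cells were selected on magnetic columns from the spleens of mice with MLL-Af4 leukemia. RNA-seq covered wild type and IGF2BP3 KO cells, the latter with a germline deletion of Igf2bp3, with 3 libraries of each genotype in each cell type and 12 in all. The eCLIP libraries, made from wild type MLL-Af4 cells with an antibody to IGF2BP3, numbered 6 from Lin- cells (3 biological and 3 technical) and 4 from CD11b+ cells (2 biological and 2 technical), each with a size-matched input library. The 2 cell types differ at once in tissue, culture and selection, and these cannot be told apart. Which mice or cultures the libraries came from, and which biological library a technical one repeats, is not given in the labels, so a p-value over libraries measures the spread between these libraries alone.

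Neutrophils fill their granules in waves as they mature. Primary granule enzymes such as myeloperoxidase are made at the promyelocyte stage, secondary (specific) granule proteins follow in myelocytes, gelatinase and the receptors of a mature cell come last, and the cytosol fills with S100a8 and S100a9. IGF2BP3 is an oncofetal RNA-binding protein, best known for binding the 3′ untranslated regions (UTRs) of mRNAs. In eCLIP, RNA crosslinked to the protein is sequenced, and a peak is a stretch where reads pile up above the rest of the gene.

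The IGF2BP3 peaks on these genes fell into 7 regions on 5 genes, after overlapping peaks were merged. The 30 bases around the summit of each region are shown because they hold the places in the transcript where IGF2BP3 was found. Each is the sense strand of the transcript, read 5′ to 3′ from the RefSeq genome of build GRCm38 (the same build as mm10), with the 4-base summit in capitals.
S100a8 region 1, chr3:90669102-90669131, plus strand: tgtaagtagggctATGTgactgtctcacag
S100a8 region 2, chr3:90669485-90669514, plus strand: gcagctcccatccCTCTgcgacttttcctt
S100a9 region 1, chr3:90692932-90692961, minus strand: taacagcctcctcTATTtcacccacagaaa
Lcn2 region 1, chr2:32385395-32385424, minus strand: ccaccggtaatggCCAGttgaggagacagg
Lcn2 region 2, chr2:32386036-32386065, minus strand: ttcactctcatctCTCTcccacagggacca
Ngp region 1, chr9:110422501-110422530, plus strand: cctccttcctgccCTTCccaggaacacccc
Mmp9 region 1, chr2:164949655-164949684, plus strand: aagagagcaaagtGTTGctgattgagtccc

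Of these 7 windows, 4 hold an exon-intron border. In S100a8 region 1 the intron opens with gt at bases 2 to 3 of the window, and in Lcn2 region 1 with gt at bases 7 to 8. In Lcn2 region 2 the intron closes with ag at bases 23 to 24, and in S100a9 region 1 with ag at bases 26 to 27.

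All 10 genes had a higher level in CD11b+ than in Lin- cells, 7 of them 9.15-fold or more and the other 3, Ltf, Mmp8 and Cxcr2, at most 1.65-fold. The level is the authors' mean normalized count over the 6 RNA-seq libraries of a cell type, both genotypes together, given here in parts per 1000000 of the summed means of the table (ppm). The 2 tables were normalized separately and the values are means with no spread, so the levels are a description without a test. In bulk RNA, more cells of a type and more RNA per cell cannot be told apart. Across the 14658 genes with a mean of at least 10 in both tables, the median log2 difference of CD11b+ minus Lin- was -0.30, with 5711 genes higher and 8947 lower. The 10 genes had a median log2 difference of 3.71 and were all higher also after this shift was taken off. Together they made up 0.0411% of the summed means in Lin- cells and 0.645% in CD11b+ cells.

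Among the secondary granule genes, the differences were very unequal. Camp, the precursor of the antimicrobial peptide cathelicidin (chr9:109847379-109849617, minus strand), stood at 5.63 ppm in Lin- cells and 268 in CD11b+ cells, 47.6-fold higher and the widest gap of the 10. Lcn2, a lipocalin that binds iron-carrying siderophores (chr2:32384633-32388252, minus strand), stood at 19.3 and 649 ppm, 33.7-fold higher. Ngp, a cathelicidin-related granule protein (chr9:110419747-110423012, plus strand), stood at 110.3 and 1373 ppm, 12.5-fold higher. Camp, Lcn2 and Ngp were thus above all but a few percent of genes in CD11b+ cells, at percentiles 97.4, 99.4 and 99.8. Ltf, the iron-binding protein lactoferrin (chr9:111019271-111042767, plus strand), stood at 17.0 and 23.3 ppm, only 1.37-fold higher. Mmp8, the neutrophil collagenase (chr9:7558456-7568485, plus strand), stood at 34.5 and 57.0 ppm, 1.65-fold higher. Ltf and Mmp8 are stored in the same class of granule as Camp and Lcn2, but their log2 differences of 0.45 and 0.73 lay at percentiles 73.9 and 79.1 of those of the 14658 genes, where that of Camp lay at percentile 99.0.

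The S100 pair had the highest levels of the 10 in CD11b+ cells. S100a8 and S100a9, the subunits of calprotectin, lie close together on chromosome 3 (chr3:90668978-90670035, plus strand, and chr3:90692632-90695721, minus strand). S100a8 stood at 77.5 ppm in Lin- cells and 1950 in CD11b+ cells, 25.1-fold higher. S100a9 stood at 132 and 1803 ppm, 13.7-fold higher. In CD11b+ cells they ranked 28 and 32 among 25887 genes by mean normalized count. Per kilobase of exon they ranked 4 and 10, at 4012 and 3454 ppm per kilobase, against 160 and 253 in Lin- cells. The 2 subunits changed order between cell types: S100a8 had 0.588 times the level in ppm of S100a9 in Lin- cells and 1.08 times in CD11b+ cells. Divided by exon length, S100a8 was likewise below S100a9 in Lin- cells and above it in CD11b+ cells.

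The genes of the last stage also split. Mmp9, gelatinase B of the tertiary granules (chr2:164940780-164955850, plus strand), stood at 6.98 ppm in Lin- cells and 310 in CD11b+ cells, 44.4-fold higher. Retnlg, a resistin-like secreted protein (chr16:48872621-48874496, plus strand), stood at 1.19 and 10.9 ppm, 9.15-fold higher. Cxcr2, the chemokine receptor with which mature neutrophils leave the marrow (chr1:74153989-74161246, plus strand), stood at 6.25 and 8.38 ppm, 1.34-fold higher and the narrowest gap of the 10. Per kilobase of exon, Retnlg reached 18.4 and Cxcr2 2.75 ppm in CD11b+ cells, the latter the lowest of the 10. The CD11b+ cells thus held S100a8, S100a9 and Ngp among the top 49 genes, while Cxcr2 ranked 10453.

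**Figure D1:**
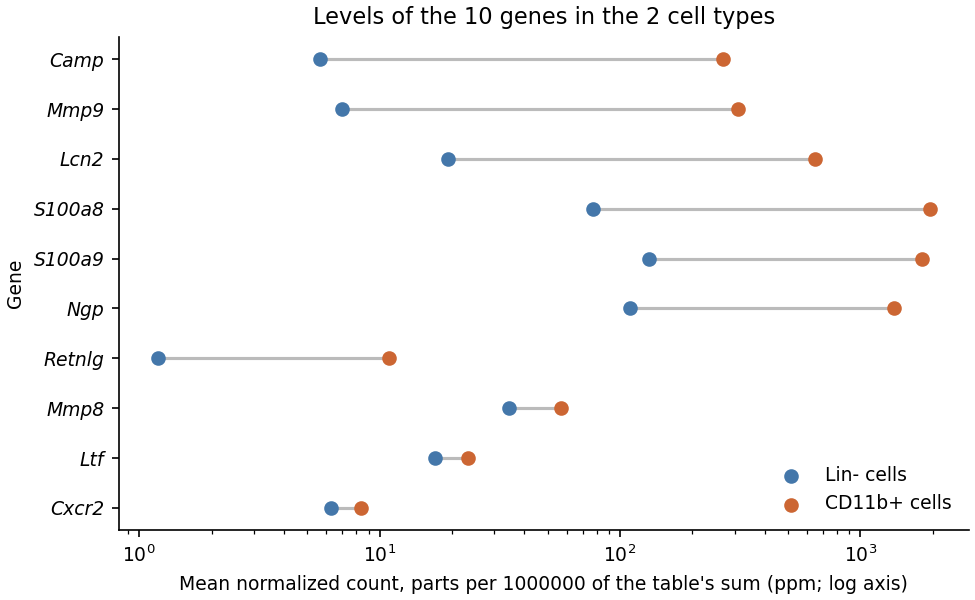
Mean normalized count in ppm, parts per 1000000 of the summed means of each table (log axis), for the 10 genes, in Lin- (blue) and CD11b+ cells (orange), each point the authors' mean over 6 libraries with no error available. Camp, at 5.63 and 268, shows the widest gap, and Cxcr2, Ltf and Mmp8 the narrowest.

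Most other genes of the same wave were also higher in CD11b+ cells, over a wider range. Of 20 further late neutrophil genes, 19 were in both tables, and 18 were higher and 1 lower in CD11b+ cells, with a median log2 difference of 3.13, from -1.83 to 7.07. Among those with the highest counts were Chil3, a chitinase-like protein, at 19.9 and 1670 ppm, Hp (haptoglobin) at 54.5 and 1200, and Cd177, a neutrophil surface protein, at 4.48 and 545. The 6 primary granule genes were all higher too, with a smaller median of 0.85. Mpo (myeloperoxidase) stood at 3767 and 4167 ppm, Elane (neutrophil elastase) at 537 and 2133, Prtn3 (proteinase 3) at 543 and 1466, and Ctsg (cathepsin G) at 495 and 803. Thus most primary granule genes already ranked high in Lin- cells, where their median percentile was 99.2 against 67.3 for the 10 late genes. The lowest of the 6, at percentile 70.1, was below Mmp8 at 75.1. In CD11b+ cells the median percentiles were 99.7 and 97.6, but percentiles near 100 hide differences in ppm. There the 6 primary granule genes summed to 8783 ppm and the 10 late genes to 6453 ppm. Of the late genes, Cxcr2, Retnlg, Ltf and Mmp8 lay at percentiles 59.6 to 84.6.

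Of 6 granulocyte transcription factors, 5 were higher and 1, Cebpa, lower in CD11b+ cells, with a median of 1.42. Spi1 (PU.1) stood at 209 and 483 ppm, Cebpa at 249 and 183, Cebpb at 63.3 and 195, and Gfi1 at 72.4 and 183. The known ligands, receptors and inhibitors of the 10 proteins were divided: 10 of 12 were in both tables, with 5 higher and 5 lower and a median of 0.01. Timp2, an inhibitor of matrix metalloproteinases, stood at 17.5 and 64.2 ppm, and Tlr4, a receptor of S100a8 and S100a9, at 21.0 and 30.5. Ppbp, a platelet chemokine that signals through Cxcr2, stood at 10.3 and 0.292, and Timp3, another inhibitor of this protease family, at 6.68 and 0.199.

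**Figure D2:**
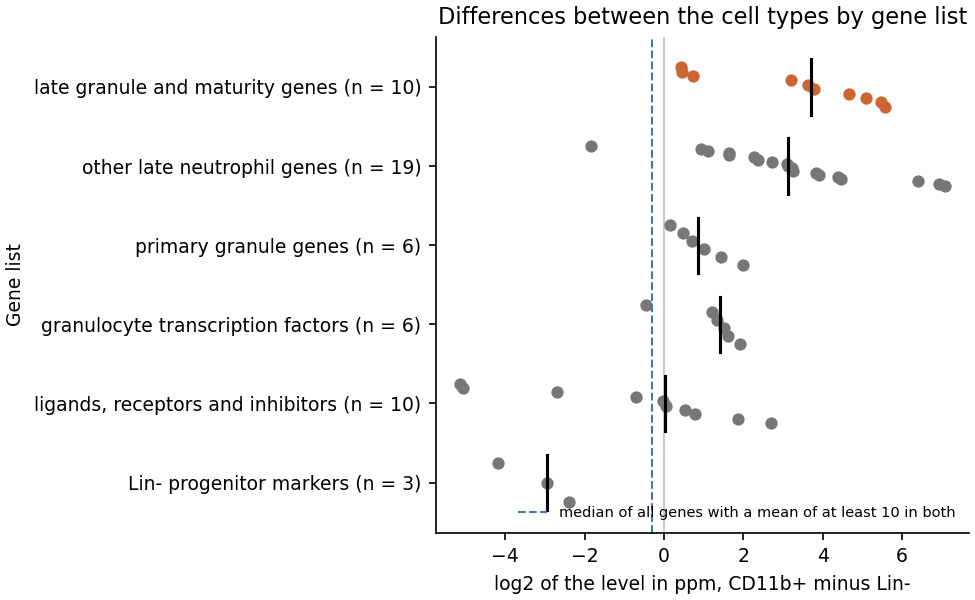
Difference in log2 level (ppm), CD11b+ minus Lin-, for each gene (points) of 6 lists, with the median of each list (black bar) and the median of all 14658 genes with a mean of at least 10 in both (dashed line, -0.30). The 10 late granule and maturity genes all lie above 0, in a low set of 3 and a high set of 7.

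Markers checked the labels and the other cells that could be present. The progenitor markers Kit, Cd34 and Flt3 were all lower in CD11b+ cells, with a summed level of 946 ppm in Lin- and 117 in CD11b+ cells. Itgam, which encodes CD11b itself, was absent from the Lin- table. In CD11b+ cells Itgam went against the label by its RNA, with a mean normalized count of only 17.0 (0.841 ppm, percentile 41.9). It had 23 filtered eCLIP peaks over all 4 CD11b+ libraries, and its partner subunit Itgb2 stood at 194 ppm in Lin- and 1287 ppm in CD11b+ cells. Igf2bp3, over both genotypes together, stood at 76.0 and 67.2 ppm. Of 8 monocyte and macrophage markers, 7 were in both tables and Irf8 was in neither. Of those 7, 6 were higher in CD11b+ cells, with sums of 1077 and 2036 ppm. Why Itgam and Irf8 are absent is not known. Eosinophil and basophil markers were lower, at 130 and 17.3 ppm. The B cell marker Cd79a stood at 0.215 ppm in Lin- cells and 7.23 ppm in CD11b+ cells. Of the erythroid markers, Hba-a1 stood at 0.218 and 62.8 ppm, and Klf1 at 2.94 and 0.791 ppm. The part of these other cells in the differences was not tested.

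IGF2BP3 peaks on the 10 genes were found in CD11b+ cells alone among the libraries analysed. After removal of peaks that overlap input peaks, 0 of 10 genes had a peak in any of the 6 Lin- libraries, where 26.5% of all 26560 genes of the table had at least 1. In CD11b+ cells, 5 of 10 did, S100a8, S100a9, Lcn2, Ngp and Mmp9, where 25.6% of all 25887 genes did. Among genes at least as highly expressed as the lowest of the 10 and no longer than Ltf, the longest at 23497 bases, the share was 36.9% of 7905 genes in Lin- cells and 36.9% of 5700 genes in CD11b+ cells. Ltf, Camp, Mmp8, Retnlg and Cxcr2 had no peak in any library. None of the 10 genes had a peak in any of the 10 input libraries, and none of the peaks was lost to the input filter, which removed 16.9% of all peaks in Lin- and 13.6% in CD11b+ cells.

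The Lin- libraries held 4040 to 10042 filtered peaks and the CD11b+ libraries 7085 to 10054, and read depth is not known. By number of peaks the cell types thus overlapped. No filtered peak of 41132 in Lin- cells lay on the 10 genes, which allows a share of up to 0.00729% (3 counts of the total). In CD11b+ cells 11 of 33246 did, or 0.0331%. These shares cover counting error only. They also count peaks of technical libraries, which repeat biological ones, as independent, so the limit for Lin- cells is too tight. In the biological libraries, the 10 genes took 0 of the peaks in each of 3 Lin- libraries and 0.0117% and 0.0696% in the 2 CD11b+ libraries, with a mean of 0.0407% ± 0.0409 (SD, n = 2). The groups did not overlap, and the difference of 0.0407 percentage points had p = 0.1 in a two-sided exact permutation test, the smallest p that 3 libraries against 2 can give. The number of genes with a peak, 0 in each Lin- library against 1 and 5, differed by 3 genes per library with the same exact permutation p = 0.1. With only peaks of p below 0.001, CD11b+ replicate 1 had no peak on the 10 genes, the groups overlapped, and the exact permutation p was 0.4 for both measures.

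A single library carried most of the peaks. CD11b+ biological replicate 2 held 7 of the 11 peaks, biological replicate 1 held 1, and the technical replicates 3 and 4 held 1 and 2. Replicate 2 was the only library with peaks on Lcn2 and Ngp. Without it, 3 genes had a peak in CD11b+ cells in place of 5, namely S100a8, S100a9 and Mmp9, and the mean share in the remaining biological library was 0.0117%. Replicate 2 had 10054 filtered peaks, against 8521 in replicate 1, 7586 in replicate 3 and 7085 in replicate 4. Its filtered peaks held 161236 reads, against 109188, 91587 and 97157 in replicates 1, 3 and 4. Before the input filter, the peaks of replicate 2 held 428244 reads, against 208689, 182385 and 264613.

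**Figure D3:**
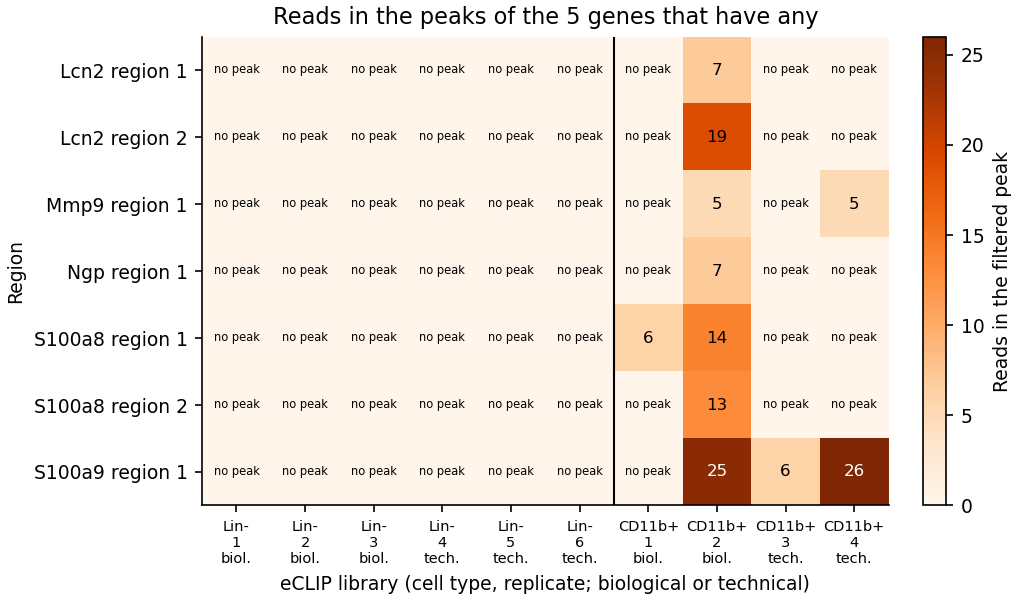
Reads in the input-filtered peak of each of the 7 regions (rows) in the 10 eCLIP libraries (columns; color scale in reads, with the number printed). All 11 peaks are in CD11b+ libraries, 7 of them in biological replicate 2, and S100a9 has the highest values with 25 and 26 reads.

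S100a9 had the most reads and the most libraries. Its single region (chr3:90692920-90692983) held 25 reads in biological replicate 2, 6 in technical replicate 3 and 26 in technical replicate 4, and no peak in biological replicate 1. The p that was read as CLIPper's for each peak was 6.97e-20, 0.00326 and 5.69e-23 in these libraries. The 25 and 26 reads put the S100a9 peak above 87.0% and 89.4% of the filtered peaks of replicates 2 and 4. The region lies at the end of intron 2, with its summit 11 bases before the last base of the intron and 15 bases of it in exon 3, and the intron is the longest of those with a region, at 2198 bases.

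S100a8 was the only gene of the 10 with a peak in both biological libraries, where 2637 of all 25887 genes had one in both. Its region 1 (chr3:90669082-90669137) held 6 reads in replicate 1 and 14 in replicate 2, with p of 0.00408 and 5.77e-10. This region covers the last 21 bases of exon 1, which is 5′ UTR, and the start of intron 1, with the summit 13 bases into the intron. Region 2 (chr3:90669481-90669513) held 13 reads in replicate 2 alone, with p of 2.52e-09, and lies in the same intron, its summit 19 bases before the intron's last base. Intron 1 of S100a8 is 416 bases long, so IGF2BP3 peaks lay at both of its ends.

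Lcn2 also had 2 regions, both in replicate 2. Region 2 (chr2:32386032-32386093) held 19 reads, with p of 3.13e-13, at the end of intron 2, with the summit 8 bases before the last base of the intron and 10 bases of the region in exon 3. Region 1 (chr2:32385389-32385433) held 7 reads, with p of 7.03e-04, at the start of intron 5, with the summit 9 bases into the intron and 15 bases of the region in exon 5.

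Mmp9 and Ngp had the fewest reads. The Mmp9 region (chr2:164949652-164949703) held 5 reads in biological replicate 2 and 5 in technical replicate 4, with p of 0.00715 and 0.00249, and lies in intron 3, its summit 39 bases before the last base. Those 5 reads were above only 22.0% and 27.2% of the filtered peaks of the libraries. The Ngp region (chr9:110422497-110422536) held 7 reads in replicate 2, with p of 3.50e-04. It was the only one of the 7 with its summit in an exon, in the 3′ UTR of exon 4.

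**Figure D4:**
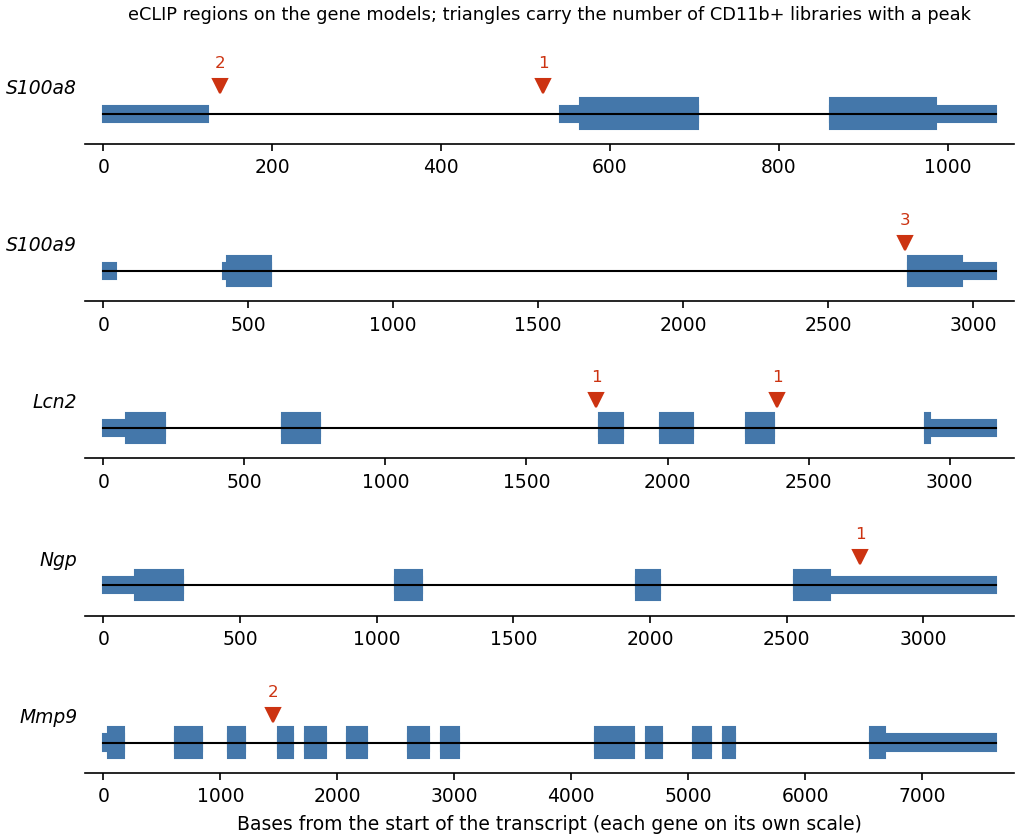
The 7 regions (triangles at the summit, with the number of CD11b+ libraries that have a peak) on the exons (boxes, coding parts taller) and introns (lines) of the 5 genes, in bases from the start of the transcript, each gene on its own scale. All summits but that of Ngp sit in introns, beside an exon.

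The intronic regions shared their place at the ends of introns. All 6 had a summit within 50 bases of a splice site, 4 nearest to the 3′ splice site and 2 nearest to the 5′ splice site, at 8 to 39 bases with a median of 12. Of all 25846 intronic peaks in CD11b+ libraries, 17.0% had a summit within this distance of an annotated splice site, and 12.0% to 20.9% in the single libraries. Short introns leave less room elsewhere: among the 6603 intronic peaks in introns of at most 2198 bases, the share was 51.8%. That limit is the S100a9 intron, and the introns of the other regions were shorter, at 277 to 986 bases, so these peaks are not matched for intron length. The distance of 50 bases was chosen after the positions were seen, and the shares are a description. In the further late neutrophil genes, 10 of 26 intronic peaks in CD11b+ libraries were within 50 bases of a splice site, and in the primary granule genes 7 of 16. In Lin- libraries, in which the 10 genes had no peak, 68.6% of all intronic peaks were that close, with 48.6% to 82.5% in the single libraries. Among the 16101 Lin- intronic peaks in introns of at most 2198 bases, the share was 91.3%.

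The windows held few letters in common. The 4 letters CACA, searched on the transcript strand, were found in 3 of the 7 windows, those of S100a8 region 1, S100a9 region 1 and Lcn2 region 2, against 19.8% of equal windows at all filtered CD11b+ peaks. GGAC, searched in the same way, was found in 1, that of Lcn2 region 2, where 5.77% of all windows held it. C and T made up 36.7% to 76.7% of the bases, with a median of 60.0% against 46.7% in all CD11b+ windows. Those windows were not matched for place, as the intronic CD11b+ peaks lay a median of 1219 bases from a splice site. In Lin- cells, where this median was 21 bases, C and T made up a median of 56.7% and CACA was in 15.6% of all windows.

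The levels set beside the peaks here are means over both genotypes, whereas the eCLIP libraries came from wild type cells. In CD11b+ cells, the 5 genes with a peak were those of the highest level among the 10. They were at percentile 97.9 or above, and Camp, next at percentile 97.4, had none. In the class above percentile 95, 58.0% of 777 genes no longer than Ltf had a peak, and 22.6% of 328 genes no longer than 3443 bases, the median length of the 10. The 4 genes below this class, Mmp8, Ltf, Retnlg and Cxcr2, had none. In their classes, 39.8%, 28.6%, 14.9% and 8.41% of genes no longer than Ltf did. In Lin- cells, Ngp and S100a9, at percentiles 91.2 and 93.1, had no peak. In their class, 82.2% of 510 genes no longer than Ltf did. S100a8, at percentile 87.0, had none in a class where 77.7% of 529 did. Mmp8, at percentile 75.1, had none in a class at 54.5%. Ngp, S100a8 and S100a9 are short, however, spanning 1058 to 3266 bases. Among genes of at most 3443 bases, a length limit set after the data were seen, the shares were 45.6% of 90 genes in the class of Ngp and S100a9 and 51.2% of 82 in that of S100a8.

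**Figure D5:**
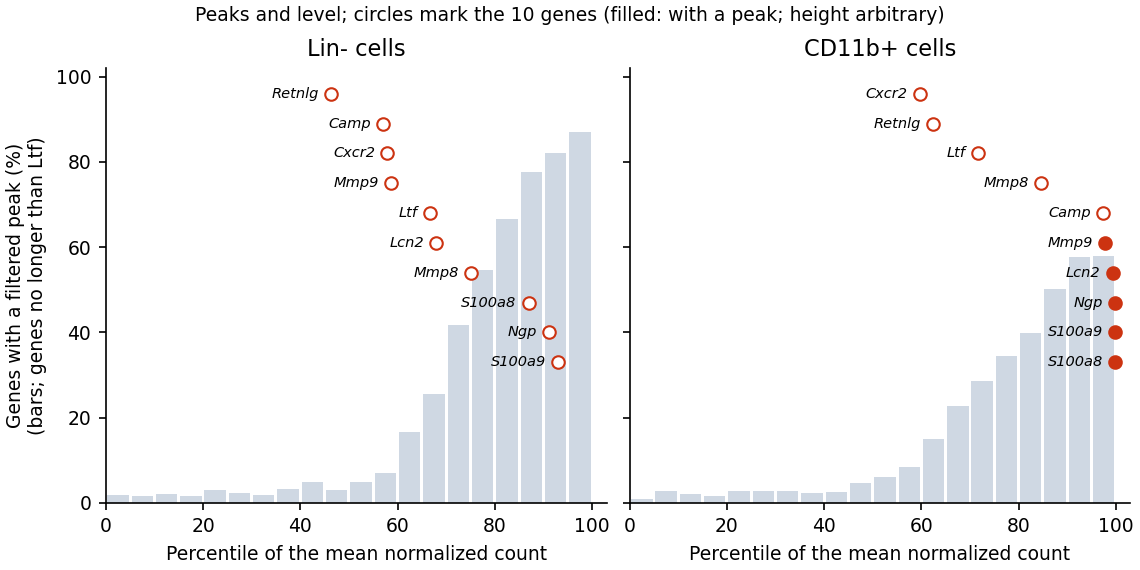
Share of genes no longer than Ltf with at least 1 filtered peak (bars) in 20 equal classes of the mean normalized count, with the 10 genes (circles, filled where the gene had a peak) at their own percentile, at an arbitrary height. In CD11b+ cells the 5 filled circles lie in the top class, where the bar is at 58.0%; in Lin- cells no circle is filled.

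Over all genes, 26.5% had a peak in Lin- cells and 25.6% in CD11b+ cells. Of the primary granule genes, 5 of 6 had one in Lin- cells, with 45 peaks over the 6 libraries. Of the 41 intronic ones, 35 lay within 50 bases of a splice site. In CD11b+ cells 4 of 6 had one, with 16 peaks. Of the further late neutrophil genes, 1 of 19 had a peak in Lin- cells and 9 of 20 in CD11b+ cells, with 2 and 34 peaks. Of the transcription factors, Cebpa, Cebpb, Gfi1 and Spi1 had a peak in both cell types. Of the ligands, receptors and inhibitors, 2 of 12 had a peak in Lin- cells and 2 of 10 in CD11b+ cells. The lists differ in level and length. In Lin- cells the median percentile was 99.2 for the primary granule genes, 58.0 for the further late genes and 67.3 for the 10. In the classes of these percentiles, 89.5%, 9.41% and 27.3% of all genes had a peak. Median lengths were 9093.5, 16967 and 3443 bases. In CD11b+ cells these medians all lay above percentile 95, where 71.8% of genes had a peak. The difference between the lists was not tested.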

How the data were processed

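The 10 genes and the lists were chosen with earlier results of these data known. Per the submitters' processing notes and the paper's methods, RNA-seq reads were mapped to mm10 with STAR 2.5.3a, repeats were masked with Bowtie2, and genotypes were compared with DESeq2, with fdrtool named for Lin- cells. The authors deposited 1 table per cell type, from which only the mean normalized count (a signal made of read counts scaled by size factors and averaged over 6 libraries) was used. The other columns hold the authors' log2 fold changes, their errors, statistics, p-values and peak flags, and were left out, so IGF2BP3 KO and wild type are not compared, and the level of the deleted gene in each library was not analysed here. The authors also deposited the eCLIP peaks, called per library with CLIPper, before and after removal of those that overlap input peaks, with a p-value of at most 0.05. The files do not name this value, which was taken for CLIPper's p, and the last number of each peak's name as its reads. The headers name other deduplication and peak calling settings for inputs than for eCLIP.

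Levels were expressed in parts per 1000000 of the summed means, as percentiles of each table, and per kilobase of the exons of GENCODE M21 (basic set), which also gave exons, UTRs and splice sites. No annotated gene of that set overlaps any of the 10. Coordinates are mm10 and counted from 1. Peaks of the libraries were merged where they overlap, and shares over biological libraries were compared by exact permutation, two-sided, at a threshold of 0.05. Technical libraries entered counts, but the main tests left them out. All 10 genes are named, and at most 4 of each list, those with the highest mean count, save some that are not reported here. Python 3.11.15, pandas 2.3.3, NumPy 2.4.6, bedtools 2.31.1 and matplotlib 3.10.9 were used, and the permutation test and the peak reader were tested on simulated data. Alternatives covered the input filter, a peak p below 0.001, the libraries, the assignment by position, replicate pairing and the genes ranked.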

Additional observations from a re-analysis of the deposited data

Results flagged for a closer look

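The number of filtered peaks on the 10 genes stood apart in a single CD11b+ eCLIP library. Biological replicate 2 had 7, and the other CD11b+ libraries had 1, 1 and 2, so that the gap to the next library was 0.833 of the whole range, above the limit of Dixon's test at 95% for 4 values. The 4 libraries are 2 biological and 2 technical, so they are not 4 independent samples, and the test treats them as such. Chance passes this limit in about 1 of 20 groups, and 3 measures were tested. The share of peaks on the 10 genes and the number of genes with a peak, with ratios of 0.715 and 0.75, did not pass it. Replicate 2 also had the most filtered peaks of the 4 libraries, 10054, and the part of its yield in the count was not tested.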

How the results depend on the processing

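For the 2 differences between cell types, none of the 11 alternatives of each turned the direction. The Lin- value was 0 in all of them, so neither difference could fall below 0. The share of peaks on the 10 genes and the number of them with a peak per library, CD11b+ minus Lin-, passed the threshold only where technical libraries were counted as replicates. The differences there were 0.0307 percentage points and 2.25 genes, with an exact permutation p of 0.00476 for both. Technical libraries repeat biological ones, so this p counts the same samples more than once and is no support for a difference. Leaving out each biological library gave 0.0117 to 0.0696 percentage points and 1 to 5 genes, and the exact permutation p under the alternatives ranged up to 0.5. The labels share replicate numbers but nothing pairs the samples, and no deviations could be correlated, as all Lin- values were 0. Differences blocked by replicate numbers 1 and 2 averaged 0.0407 percentage points and 3 genes, where the exact permutation p cannot fall below 0.5. The count of genes with a peak in CD11b+ cells, 5, was 2 in technical libraries alone and 3 to 5 without each biological library in turn. It was 1 of 10 where peaks in at least 2 biological libraries were asked for, and 2637 of all 25887 genes passed that rule. With a peak p below 0.001 the count was 4, and the exact permutation p of both differences was 0.4. In Lin- cells the count of genes with a peak was 0 under each of 9 alternatives. Peaks before the input filter and assignment by position could have changed it. The others only took away libraries or peaks, so they had to give 0. The median percentile of level, 67.3 in Lin- and 97.6 in CD11b+ cells, was 48.0 and 96.2 among genes with a mean of at least 10, 63.3 and 97.4 among genes in both tables, and 72.4 and 97.3 per kilobase of exon. Read depth is unknown, so the lack of a peak does not show that IGF2BP3 did not bind, and 4 of the 7 regions rest on 1 library, where 42.5% of all merged CD11b+ regions were held by at least 2 libraries.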
